A study of Homo sapiens with 3 samples.

Results

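In stratified cultures of the SV40-immortalized human corneal epithelial line (iHCE), *TGFBI*, *TGFBR2*, *SMAD2* and *SMAD3* were expressed above background on every array. No transcript of the ligand genes *TGFB1*, *TGFB2* and *TGFB3* was above background on any array, nor was that of the receptor genes *TGFBR1* and *TGFBR3* or of *SMAD7*. The genes described here are these 10, the ligands, receptors and SMADs of transforming growth factor beta (TGF-beta) together with *TGFBI*, a matrix gene named for its induction by the ligand. They were chosen by symbol, and every probe set that names 1 of them alone was kept. This gave 20 probe sets of the 19071 that name a single gene, or 10 of 11963 genes. Above background means that the log2 value passed a threshold on every one of the 3 arrays. The threshold of an array was the 95th percentile of 59 reference genes that belong to unrelated tissues such as liver, muscle and testis.

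TGF-beta is secreted bound to a latency peptide and acts only once it is released. The free ligand joins a type II receptor, which switches on a type I receptor kinase, and this kinase phosphorylates SMAD2 and SMAD3 so that they enter the nucleus with SMAD4. SMAD7 is made in response and shuts the type I receptor off. In the cornea the pathway is known for its part in wound healing and scarring and for holding back epithelial proliferation, and TGFBI protein accumulates in several inherited corneal dystrophies.

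The iHCE line carries the viral large T antigen, which inactivates the p53 and retinoblastoma proteins, and it stands for 1 immortalized line. Cells at passages 22 to 23 were grown on collagen-coated filters under medium for 1 week and then with the apical medium removed, so that the layer stratified. All cultures received the same DMEM/Ham's F12 medium with 15% fetal bovine serum, L-glutamine (0.3 mg/ml), insulin (5 µg/ml), cholera toxin (0.1 µg/ml), EGF (10 ng/ml), DMSO (0.5%) and antibiotics, and L(+)-ascorbic acid (40 µg/ml) from the removal of the apical medium on. RNA came from 3 independent replicate cultures, called cultures 1, 2 and 3, with electrical resistances of 489, 439 and 468 Ω · cm2, and each was hybridized to 1 Affymetrix HG-U133A array. There is 1 group, so no condition was compared with another, and the corneal tissue arrays to which the study set these cultures were not analysed here. The array measures the whole layer, in which fewer cells of a type and less RNA per cell cannot be told apart. Of 6 markers of corneal epithelium, including *KRT3* and *KRT12*, none was above background, while all 6 markers of simple epithelium were. No keratocyte or fibroblast marker was above background (0 of 7 measured), nor any of endothelium (0 of 5) or melanocytes (0 of 4), and of 7 immune cell markers only *CD74* was.

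The sequences before the transcription starts of *TGFBI*, *TGFB1* and *TGFB2* are shown because these genes lie on both sides of the background call and RefSeq lists a single start for each. These are the 250 bases before the start, 5′ to 3′ on the strand of the gene, from RefSeq on build GRCh38.p14, and all 10 genes were matched. Capitals mark the TATA box letters TATAAA and the GC box letters GGGCGG on either strand. The first lies at chr5:136028738-136028987 on the plus strand, the second at chr19:41353923-41354172 on the minus strand and the third at chr1:218345086-218345335 on the plus strand.
TGFBI: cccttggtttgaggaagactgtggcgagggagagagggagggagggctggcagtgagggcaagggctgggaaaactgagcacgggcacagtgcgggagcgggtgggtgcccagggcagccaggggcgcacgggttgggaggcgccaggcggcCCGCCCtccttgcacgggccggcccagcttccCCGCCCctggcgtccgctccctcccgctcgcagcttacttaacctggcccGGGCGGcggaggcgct
TGFB1: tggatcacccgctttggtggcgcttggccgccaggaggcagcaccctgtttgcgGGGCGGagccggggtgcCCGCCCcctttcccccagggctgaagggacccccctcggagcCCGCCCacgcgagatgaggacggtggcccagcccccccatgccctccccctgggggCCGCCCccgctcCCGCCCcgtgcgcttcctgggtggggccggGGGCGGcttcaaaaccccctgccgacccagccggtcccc
TGFB2: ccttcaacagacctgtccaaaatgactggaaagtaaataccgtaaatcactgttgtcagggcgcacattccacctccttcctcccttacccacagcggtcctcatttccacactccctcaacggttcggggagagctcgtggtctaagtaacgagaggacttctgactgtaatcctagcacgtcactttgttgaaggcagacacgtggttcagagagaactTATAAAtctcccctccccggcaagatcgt
The sequence of *TGFBI* held 3 GC boxes and that of *TGFB1* 6, and neither held a TATA box. *TGFB2* differed from both, with 1 TATA box and no GC box. Its G and C content was 50.4%, against 72.8% for *TGFBI* and 76.8% for *TGFB1*. Over all 35116 listed promoters of this length 10.7% held a TATA box and 42.6% a GC box. The letters CAGAC, a core of the SMAD binding motif, occurred on either strand at 2 places before *TGFB2*, at none before *TGFBI* or *TGFB1*, and in 38.0% of all promoters. These matches describe the letters only. *TGFBR3*, the other member with a single listed start and not above background, held 2 GC boxes and no TATA box at 73.6% G and C, and its sequence is not printed. A GC box was present both before a gene above background and before one that was not.

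The background thresholds were 7.52, 7.23 and 7.24 in cultures 1, 2 and 3, on arrays whose medians lay between 6.37 and 6.38. Values on the log2 scale of different probe sets depend on how well each probe binds as well as on the amount of RNA, so each probe set was read against the threshold and not against other genes. Arrays have no read depth, and precision rests on their number. Across probe sets cultures 2 and 3 correlated at r = 0.994, and culture 1 with them at 0.988 and 0.987, where probe sets are not independent replicates.

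**Figure D1:**
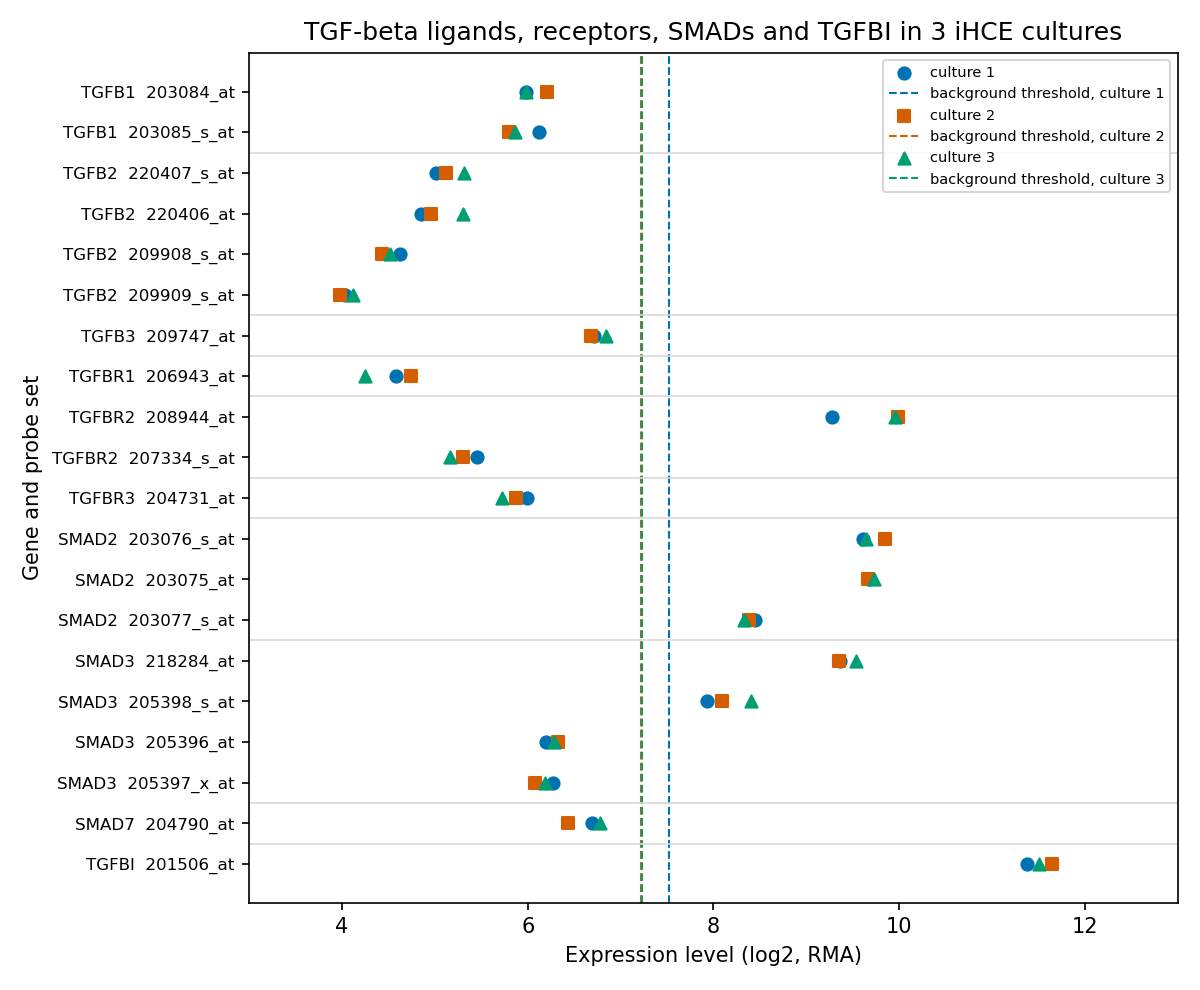
Level of each probe set of the 10 genes in the 3 iHCE cultures, on the log2 RMA scale, with 1 marker per culture and dashed lines for the background threshold of each array. The probe set of *TGFBI*, 1 of *TGFBR2*, the 3 of *SMAD2* and 2 of *SMAD3* lie right of the lines in every culture, and the other 13 lie left of them, none above 6.84.

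Of the 20 probe sets 7 were above background, or 35.0%, and of all probe sets that name 1 gene 31.5% were. By gene the count was 4 of 10, and the share over all genes was 39.7%. At this threshold both shares were near those of the whole array, and they are no result about the group. The median level of the 20 probe sets was 6.22 and that of all probe sets 6.48. By role, of the 3 ligand genes 0 were above background, of the 3 receptor genes 1, of the 3 SMAD genes 2, and *TGFBI* was the other, counts too small to set the roles apart. Each probe set exceeded the threshold on all 3 arrays or on none. The lowest excess on any array among the 7 was 0.41 log2 units and the smallest shortfall among the other 13 was -0.40. Against the threshold as a fixed value, limma's one-sided test with Benjamini-Hochberg adjustment over all 19071 probe sets passed the same 7, with adjusted p from 3.0e-13 to 0.00016, and 30.5% of all probe sets passed it.

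*TGFB1*, which encodes the ligand best known for driving corneal scarring, read 5.98, 6.21 and 5.98 at probe set 203084_at and 6.12, 5.80 and 5.86 at 203085_s_at in cultures 1, 2 and 3. All 6 values lay more than 1 log2 unit below the threshold of their array. The mean was 6.06 ± 0.13 (SD, n = 3 cultures) at the first probe set and 5.93 ± 0.17 at the second. *TGFB2* encodes the ligand that predominates in the aqueous humor of the eye. Its 4 probe sets were not above background on any array, with means of 5.15 ± 0.15 (220407_s_at), 5.04 ± 0.24 (220406_at), 4.53 ± 0.10 (209908_s_at) and 4.04 ± 0.07 (209909_s_at; SD, n = 3 for each). No single value of *TGFB2* exceeded 5.31. *TGFB3*, a ligand tied to palate closure and to repair with little scar, read 6.72, 6.68 and 6.84 at its only probe set 209747_at. Its mean of 6.75 ± 0.08 (SD, n = 3) was 0.58 log2 units below the thresholds. Values below the threshold carry no order, so these readings do not rank the 3 ligands, and a transcript at a low level is not told from an absent one.

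The receptor genes were split. *TGFBR2* encodes the type II receptor kinase that binds the ligand first, and its probe set 208944_at read 9.28, 9.99 and 9.95 in cultures 1, 2 and 3. Culture 1 was the low one, and even there the value was 1.76 log2 units over the threshold. The mean was 9.74 ± 0.40 (SD, n = 3), 2.41 ± 0.18 log2 units (limma SE) above the thresholds (adjusted p = 3.1e-09). The other probe set of the gene, 207334_s_at, gave 5.46, 5.31 and 5.16 and was not above background on any array, so the 2 probe sets disagree, and the call of the gene rests on the first. *TGFBR1*, the type I receptor kinase that TGFBR2 activates, read 4.59, 4.74 and 4.25 at its single probe set 206943_at, a mean of 4.52 ± 0.25 with differences from the thresholds of -2.93, -2.49 and -2.99 log2 units. *TGFBR3* encodes betaglycan, a co-receptor without a kinase that presents TGF-beta2 in particular to the type II receptor. It read 5.99, 5.88 and 5.72 at 204731_at, all below the thresholds (5.86 ± 0.13, SD, n = 3). Of the pair of kinases that signal together, the array thus detected the transcript of one and not that of the other, and the *TGFBR1* reading rests on 1 probe set.

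The receptor-activated SMADs were well above background. All 3 probe sets of *SMAD2* were called, the only gene with several probe sets of which each was. At 203075_at it read 9.68, 9.67 and 9.73, and the mean of 9.69 ± 0.03 (SD, n = 3) had the smallest spread of the 20 probe sets. The other 2 probe sets averaged 9.70 ± 0.12 (203076_s_at) and 8.38 ± 0.06 (203077_s_at). Each was above the thresholds by limma's one-sided test (adjusted p = 1.3e-10, 2.1e-10 and 2.0e-06, in the order given), although 203077_s_at exceeded the highest panel value in culture 1 only. *SMAD3*, which unlike *SMAD2* encodes a protein that binds DNA directly, had probe sets on both sides. Probe set 218284_at read 9.37, 9.35 and 9.54 in cultures 1, 2 and 3 (9.42 ± 0.10, limma adjusted p = 8.2e-10) and 205398_s_at read 7.93, 8.09 and 8.40 (8.14 ± 0.24, limma adjusted p = 0.00016). The first kept its call under each threshold tried, and the second lost it with the panel median plus 3 scaled MADs and with the highest panel value. The 2 others, 205396_at and 205397_x_at, averaged 6.27 ± 0.06 and 6.18 ± 0.10 and were not above background on any array. The inhibitory *SMAD7* read 6.69, 6.43 and 6.78 at 204790_at. Its mean of 6.63 ± 0.18 (SD, n = 3) lay 0.69 log2 units below the thresholds, and the values of the 3 cultures were within 0.35 log2 units of each other.

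*TGFBI* was far above background in every culture. Its product is a secreted matrix protein with fasciclin-like domains that binds integrins and collagen, and it is a classical target of TGF-beta in epithelial cells. At 201506_at it read 11.38, 11.64 and 11.51 in cultures 1, 2 and 3, and every culture was at least 3.86 log2 units over its threshold. The mean was 11.51 ± 0.13 (SD, n = 3), 4.18 ± 0.14 log2 units (limma SE) above the thresholds (limma adjusted p = 3.0e-13).

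By median SD the cultures differed in these genes about as much as over the whole array. The range over the 3 cultures reached 0.5 log2 units in 1 of the 20 probe sets, 208944_at of *TGFBR2*. It did so in 15.9% of all probe sets and in 17.1% of those above background, and a count of 1 does not set the 20 apart. The median SD was 0.13 for the 20 and 0.14 over all probe sets. For *TGFBR2* culture 1 stood 0.72 log2 units below culture 2, and cultures 2 and 3 were within 0.04 of each other. Each culture has 1 array, so this difference has no replicate check. Of the 3023 probe sets with such a range, culture 1 was the culture apart in 64.7%, and a range with culture 1 apart and lowest occurred in 6.38% of all probe sets. The second probe set of *TGFBR2* did not show it, as culture 1 was its highest, within background. Culture 1 was the lowest in 4 of the 7 member probe sets above background and in 38.6% of all probe sets above background. Culture 1 also had the highest electrical resistance, and with 3 cultures no relation to resistance could be tested. Without culture 1, 0 of the 20 probe sets and 2.93% of all probe sets reached a range of 0.5 log2 units.

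**Figure D2:**
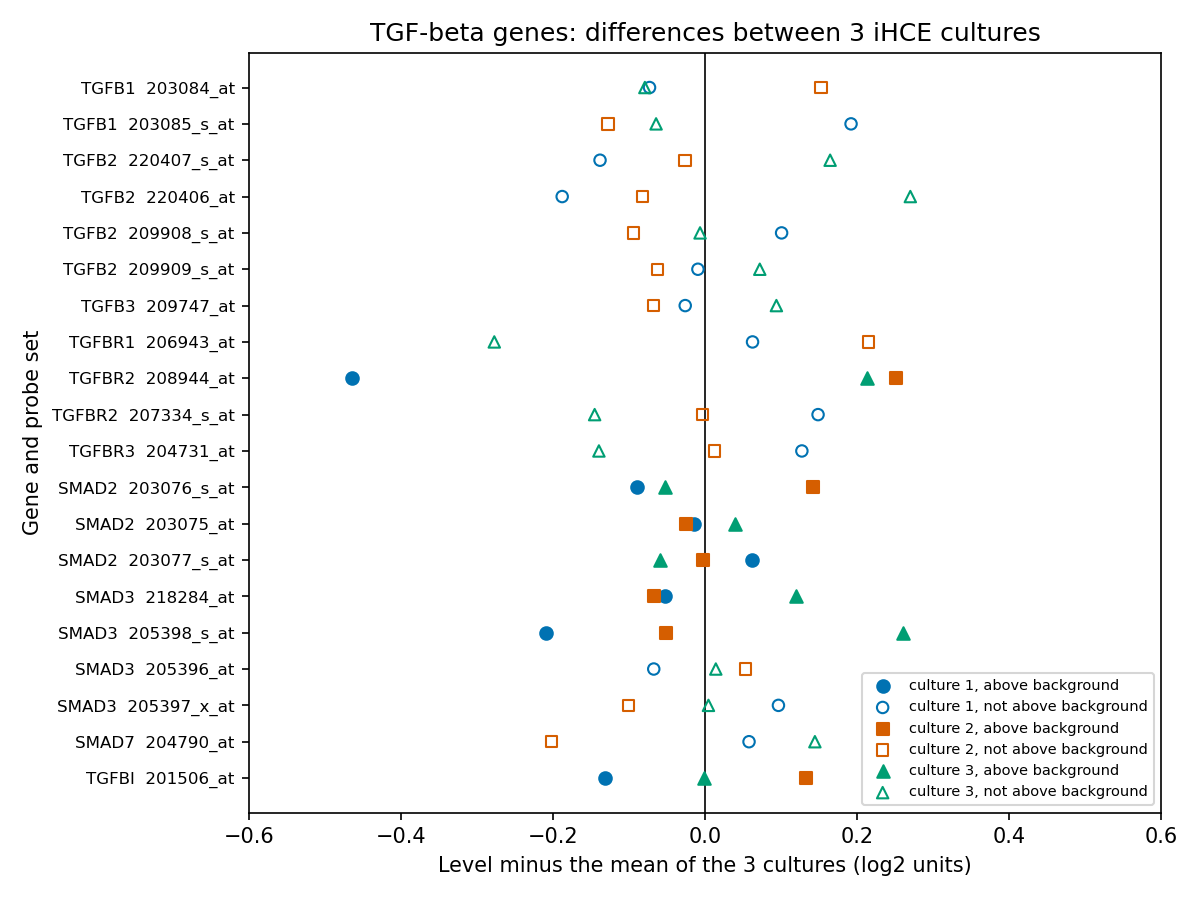
Level of each probe set minus its mean over the 3 iHCE cultures, in log2 units, with filled markers for probe sets above background and open markers for the others. The filled circle of culture 1 for *TGFBR2* 208944_at lies far left of its other cultures, and no other probe set spans 0.5 log2 units.

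The rest of the pathway was read from a list of 97 other genes in 8 roles, of which 90 were measured. Of these, 30 were above background (33.3%), 18 on 1 or 2 arrays only and 42 on none, beside 39.7% of all genes. With the highest panel value as the threshold 10 of the 90 were above it and 14.7% of all genes. Their median distance from the thresholds was -0.18 log2 units, that of the 10 core genes -0.64 and that of all genes -0.35. For the pathway genes named below the value is that of the probe set with the highest mean.

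**Figure D3:**
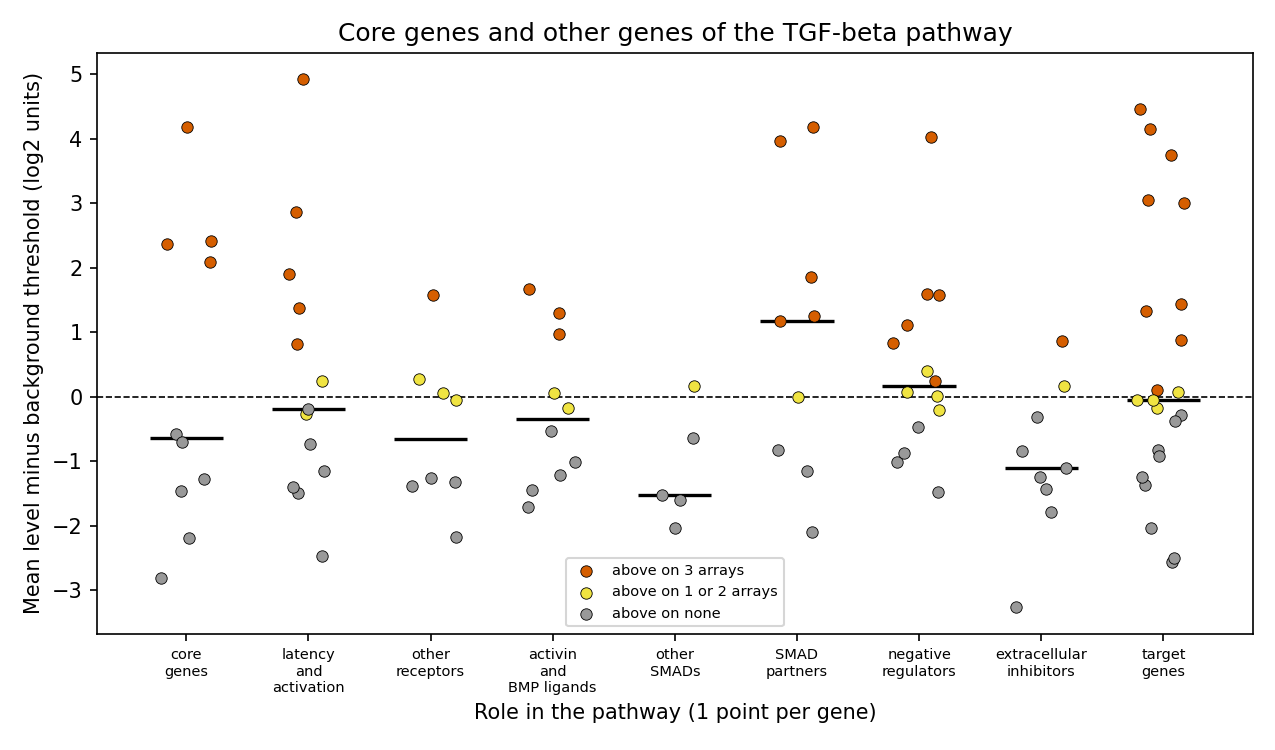
Mean level minus the mean background threshold, in log2 units, for the 10 core genes and for the 90 other measured genes of the pathway by role, with 1 point per gene at its brightest probe set and black bars for medians. Colors give the number of arrays above background. Core genes split into 4 points over 2 log2 units and 6 points below the dashed line, and none of the other SMADs was above it on 3 arrays.

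Of 13 measured genes that store and release the latent ligand 5 were above background (38.5%), a share near the 39.7% of all genes. They included the integrin subunit genes *ITGB1* (12.25 ± 0.20, SD, n = 3), *ITGB5* (10.19 ± 0.13) and *ITGAV* (9.23 ± 0.04), of which the last encodes the alpha chain of the integrins that free TGF-beta from its latency peptide. *LTBP3*, a latent TGF-beta binding protein, had 8.71 ± 0.06. The beta chains *ITGB3* (5.92 ± 0.28) and *ITGB8* (4.86 ± 0.21) were not above background, and *ITGB6* was not analysed here. When probe sets that may bind more than 1 transcript (named _x_at or _s_at) were left out, *ITGB1* and *ITGB5* were not above background. *ITGB1* also lost its call with the mean over its probe sets.

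Among the 8 other measured receptors, *ACVR1B*, a type I receptor for activin that also acts on SMAD2 and SMAD3, was the only one above background (8.91 ± 0.06, SD, n = 3). This is 12.5% of the 8, beside 39.7% of all genes. *ACVR1B* lost its call with the highest panel value and with the mean over its probe sets. *ACVR1* (7.39 ± 0.33) and *ACVR2A* (7.61 ± 0.11) exceeded the threshold on 2 of the 3 arrays each. Of 10 activin and BMP ligand genes 3 were above background (30%, beside the same 39.7%). *INHBA*, the activin A subunit, read 8.52, 7.98 and 9.39 in cultures 1, 2 and 3, with culture 3 the highest. *BMP2* averaged 8.30 ± 0.36 and the stress-induced *GDF15* 8.99 ± 0.20, while *BMP4* (6.31 ± 0.09) and *BMP6* (5.62 ± 0.14) were not above background. *INHBA* and *GDF15* lost the call without _x_at and _s_at probe sets, and *INHBA* also with the mean over its probe sets. With the highest panel value *INHBA*, *BMP2* and *GDF15* all lost it.

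None of the other 5 SMAD genes was above background on all arrays, beside 39.7% of all genes, and 5 genes are few. *SMAD4*, the common partner of SMAD2 and SMAD3, read 5.27, 5.96 and 5.98 in cultures 1, 2 and 3. Culture 1 was the low one, and each value was more than 1 log2 unit below its threshold. *SMAD1*, of the BMP branch, exceeded the threshold on 2 arrays (7.50 ± 0.21, SD, n = 3). Among 9 partners of the SMADs 5 were above background (55.6%), again a small count beside that share. The nuclear transport genes *XPO1* (11.50 ± 0.04) and *KPNB1* (11.29 ± 0.06), which serve many cargoes, were among them, as were the endosomal *ZFYVE16* (9.18 ± 0.14) and the acetyltransferase gene *CREBBP* (8.58 ± 0.12). *EP300* (6.50 ± 0.16) and *FOXH1* (6.17 ± 0.05) were not.

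Intracellular and surface brakes on the pathway were above background in 6 of 14 cases (42.9%), near the 39.7% of all genes. The secreted ones were in 1 of 9 (11.1%), a count too small to set them apart, and the difference was not tested. *STRAP*, which holds SMAD7 at the receptor, had a level of 11.35 ± 0.24 (SD, n = 3), the SMAD phosphatase gene *PPM1A* 8.92 ± 0.12 (not called without _x_at and _s_at probe sets), the corepressor gene *TGIF1* 8.91 ± 0.05 and *FKBP1A*, which guards the type I receptor, 8.43 ± 0.25. *BAMBI*, a decoy receptor (7.35 ± 0.18), was above on 2 arrays and *PMEPA1*, itself induced by TGF-beta, on none (6.45 ± 0.35). The activin inhibitor *FST* (8.19 ± 0.14) was the single secreted inhibitor above background. It was not so with the highest panel value, without _x_at and _s_at probe sets or with the mean over its probe sets. The matrix proteoglycan gene *BGN* (6.49 ± 0.09) and the BMP inhibitor *CHRD* (5.89 ± 0.10) were not.

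Of 22 measured genes known to respond to TGF-beta or BMP, 9 were above background (40.9%), again near the 39.7% of all genes. The matrix gene *FN1* read 11.78 ± 0.17 (SD, n = 3), without a call when _x_at and _s_at probe sets were left out. The inhibitors of helix-loop-helix factors *ID1* (11.48 ± 0.33) and *ID3* (10.38 ± 0.44) and the metalloproteinase inhibitor *TIMP1* (11.07 ± 0.30) were above background too. *CDKN2B*, a cell cycle inhibitor through which TGF-beta arrests epithelial cells, averaged 4.77 ± 0.09 and *COL1A1* 7.05 ± 0.30, neither above background on any array. *CDKN1A*, another cell cycle inhibitor among the 22, was above background (10.33 ± 0.08). These genes answer to other signals too, and their levels without TGF-beta were not measured, so the values do not show which are under its control here. Many targets varied between cultures. Of the 22, 10 ranged over 0.5 log2 units or more, while 15.9% of all genes did and, of the 10 core genes, 1 (*TGFBR2*). The count of 10 targets was not repeated at a wider range or without each culture, and each culture has 1 array. Of the 10 targets, *COL1A1*, *TAGLN* and *MMP2* were above background on no array, *SNAI2* on 1 and *COL4A1* on 2. The ranges of these genes lie at or near background. Culture 1 was the highest in 7 of these 10 targets, culture 2 in 2 and culture 3 in 1. The 7 include *COL1A1*, *TAGLN*, *MMP2* and *SNAI2*. Over all probe sets with such a range culture 1 was the culture apart, the one farther from the middle value, high or low, in 64.7%. Being apart is another measure than being the highest, so this share is no reference for the 7. For *ID3* culture 1 was the highest, but culture 3 lay farther from the middle value. How often it was the highest over all genes was not counted. *CCN2*, a matricellular target named after its values were seen, had the widest range, 2.48 log2 units, and the next widest of the targets was 0.96. It read 7.62, 10.11 and 8.55 in cultures 1, 2 and 3, culture 2 being the highest. *JUNB*, a transcription factor of the AP-1 family also named after its values were seen, read 8.76, 8.05 and 7.80. Culture 1 was the highest, as it was for *ID3* with 10.79, 10.45 and 9.91. The difference of the target genes from the core genes was not tested.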

How the data were processed

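RNA of 3 replicate iHCE cultures was measured on HG-U133A arrays, 1 array each, and the labels give 1 group. The authors computed log2 expression values by RMA in R 2.8.0, per the labels, and deposited them for 22283 probe sets. RMA corrects background, normalizes between arrays and summarises probe sets, so total brightness is equalized and low values are compressed. The methods describe a joint import of these and the tissue arrays with normalization across the whole set, on re-annotated genes. Whether the deposited table, which is by the manufacturer's probe sets, comes from that run is not stated there.

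Probe sets were named through the platform annotation, with symbols updated through Entrez numbers in RefSeq (GRCh38.p14, names and promoter sequences only). The analysis used the 19071 probe sets with 1 symbol. Background was set per array at the 95th percentile of 59 measured genes (71 listed) of other tissues, 3 of which exceeded it on all arrays. Genes were read at their brightest probe set (by mean). limma 3.58.1 (R 4.3.3) tested value minus threshold (one-sided), with Benjamini-Hochberg adjustment. It takes the threshold as known. The limma test and the rule on 3 arrays were tested on simulated distances from the threshold. Simulated negatives were all centered 2 log2 units below it, so false calls nearer to it were not tested. The panel threshold and the choice of probe set were not simulated. Named pathway genes were, per role, up to 4 above background by excess and 2 others by alphabet, and all of a side with 3 or fewer. *CCN2*, *JUNB*, *CDKN1A*, *TAGLN*, *MMP2*, *SNAI2* and *COL4A1* were named after their values were seen. Members, lists, panel and tests were chosen with earlier results of these data known. Alternatives were other thresholds, limma as the call, quantile normalization, leaving out each replicate or _x_at and _s_at probe sets, the mean over probe sets, a range of 1 log2 unit and, added after the data were seen, the panel without its highest gene (*MBP*).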

Additional observations from a re-analysis of the deposited data

How the results depend on the processing

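The 4 member genes above background, *TGFBI*, *TGFBR2*, *SMAD2* and *SMAD3*, were the same under each of 11 alternatives, and no other member was called under any. Over all genes the share ran from 14.7% with the highest panel value to 46.6% with the 90th percentile. The difference of the 10 members from these shares was not tested. Of the 20 member probe sets 7 were above background in all but 3 of 10 alternatives. The exceptions were 6 with the panel median plus 3 scaled MADs, 5 with the highest panel value, and 4 of the 11 left without _x_at and _s_at probe sets, where the lower count follows from fewer probe sets. Leaving out each replicate gave 7 throughout, which follows from each probe set being above its threshold on all arrays or on none. limma's test passed 7 member probe sets in 6 of 7 alternatives, where 24.7% to 36.9% of all probe sets passed. Against the highest panel value, which is that of *MBP*, it passed 1, that of *TGFBI*, and 7.73% of all probe sets. The count of other pathway genes, 30 of 90, was 10 with the highest panel value, beside 14.7% of all genes. It was 44 with the 90th percentile (46.6% of all genes) and 39 with the panel without *MBP* (43.7%). Without 1 replicate it was 30 to 40 (39.9% to 44.4% of all genes), with 40 without replicate 1. Member probe sets with a range of 0.5 log2 units or more numbered 1, against 2 after quantile normalization (*TGFBR2* 208944_at and *TGFB2* 220406_at), 0 at a range of 1 log2 unit and 0 to 1 without 1 replicate, with 0 without replicate 1. Over all probe sets the share was 15.9%, against 15.7%, 1.28% and 2.93% to 10.5% in the same order. After quantile normalization each member probe set's mean stayed within 1 SD of its value. No paired analysis was possible because there is 1 group. Signal over background limits the readings: the 13 member probe sets below the thresholds give no level, and 5 of the 10 genes rest on 1 probe set.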
